A study of Mus musculus with 8 samples.

Results

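The contacts of the Sox9 promoter were read from a viewpoint of 3 neighbouring 10 kb bins on chromosome 11, chr11:112630001-112660000 (mm9), of the 587 bins that each contact map covers. Sox9 itself was placed in the middle bin. Capture Hi-C enriches ligated DNA fragments from a chosen region, so that read pairs count contacts between places. It had been done on fore- and hindlimb buds of E12.5 mouse embryos, and 8 libraries were analysed, 1 per genotype. All 8 genotypes were homozygous CRISPR/Cas9 mutants on the G4 embryonic stem cell background, and each library pooled limb buds of 3 to 8 embryos. A library of an unedited animal was not analysed here.

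The labels name 4 deletion libraries, ∆BorC1, ∆BorC1-2, ∆BorC1-4 and ∆CTCF, called here in that order, in which the boundary between Kcnj2 and Sox9 (chr11:111390001-111400000) was lost from the maps. The boundary bin held 0 Sox9 contacts in each of them and in InvC∆Bor, which allows a share of up to 0.00331% in ∆BorC1-4 and 0.0105% in InvC∆Bor (limit of 3 counts per library). It held 641 in InvC and 582 in InvIntra. The labels do not say what C1, C2 or C4 stand for, nor whether ∆CTCF carries the changes of ∆BorC1-4. In InvC the interval from the boundary to close to Sox9 was inverted, which set the boundary next to Sox9, and InvC∆Bor had the same inversion without contacts in the boundary bin. In InvIntra the boundary bin stayed in place and the sequence between it and the vicinity of Sox9 was inverted. BorKnockIn lacked sequence at the original boundary site and carried added sequence on the Sox9 side, so its Sox9 viewpoint was read 1 bin further left. These arrangements come from earlier results on the coverage of the maps, since the labels give the names alone.

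The transcription factor SOX9 drives the formation of cartilage, and with it of the limb skeleton. Its limb enhancers lie in a long interval with few protein-coding genes to its left, called the desert here, which spans chr11:111410001-112620000. Chromatin of this kind folds into domains within which contacts are frequent, and the protein CTCF, which stops loop extrusion by cohesin in an orientation-dependent way, marks many domain borders. Kcnj2, which encodes an inward rectifier potassium channel, lies in the neighbouring domain on the left. In the RefSeq gene order of GRCm38.p6, used for order alone, 7 genes stand between Kcnj2 and Sox9, all annotated as long noncoding RNAs or pseudogenes except the predicted coding gene Gm11677, and the next gene to the right of Sox9 is the long noncoding RNA Gm11681.

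The maps held from 3056502 raw contacts in InvC∆Bor to 9045698 in ∆BorC1-4. The viewpoint held, with bins at least 20 kb away, 47286, 61592, 90696 and 44286 raw contacts in the deletion libraries, in the order above, 47205 in BorKnockIn, 44967 in InvC, 60660 in InvIntra and 28688 in InvC∆Bor. This was 0.794% of all contacts of the library in BorKnockIn, the lowest, and 1.00% in ∆BorC1-4, the highest. With 1 library per genotype there is no replicate error and no test. Intervals given are exact 95% Clopper-Pearson intervals for shares, exact Poisson intervals for contact over expectation and log-normal intervals for ratios, and they cover counting error only. As a measure of how libraries differ away from the edits, the same calculations were run at 104 viewpoints at least 300 kb outside the interval from Kcnj2 to the right edge of the Sox9 domain. That spread is not replicate error either.

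In the deletion libraries most Sox9 contacts lay to the left of the gene, in the desert and beyond it: 70.1%, 70.0%, 69.8% and 69.9%. The share to the left was 64.7% in InvC∆Bor, 62.7% in InvIntra, 53.3% in BorKnockIn and 50.9% in InvC. The deletion libraries were thus close to each other, and BorKnockIn and InvC, with added sequence or the moved boundary near Sox9, stood lowest. The median distance of the contacts to the left was also shorter in that pair, 490 kb in InvC and 570 kb in BorKnockIn. It was 690 kb in ∆BorC1 and InvIntra, 720 kb in ∆BorC1-2, 750 kb in ∆BorC1-4 and ∆CTCF, and 790 kb in InvC∆Bor. This held for the median only. The distance that took in 90% of the left contacts was longest in InvC, 2320 kb. It was 2090 kb in BorKnockIn and from 2050 kb in InvIntra to 2260 kb in InvC∆Bor in the others.

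The desert, by sequence, took 52.4% of the Sox9 contacts in ∆BorC1 (interval 52.0 to 52.9). The share was 49.6% (49.2 to 50.0), 48.7% (48.3 to 49.0) and 48.3% (47.8 to 48.7) in the other 3 deletion libraries. In InvIntra it took 47.8% (47.4 to 48.2), in InvC∆Bor 42.5% (42.0 to 43.1), in BorKnockIn 40.8% (40.4 to 41.2) and in InvC 34.0% (33.5 to 34.4). Ordered this way, ∆BorC1-4, ∆CTCF and InvIntra were neighbours whose intervals touched or overlapped, while the other steps exceeded the counting error. The step from BorKnockIn to InvC was absent with a viewpoint of the middle bin alone, read against all bins at least 20 kb from it, 33.7% against 33.6%. The contacts that the desert did not take lay in part on the other side of the gene. The interval from Sox9 to the right domain edge at 113.03 Mb took 23.4%, 23.7%, 23.6% and 24.1% in the deletion libraries. It took 26.6% in InvC∆Bor, 28.0% in InvIntra, 34.3% in BorKnockIn and 36.7% in InvC.

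Contacts past the right edge followed the same order of groups. They made up 6.42%, 6.30%, 6.56% and 5.99% in the deletion libraries, 8.72% in InvC∆Bor, 9.27% in InvIntra, and 12.4% in both BorKnockIn and InvC. Shares of 1 viewpoint sum to 100%, so a lower share in one region has to appear as a higher share elsewhere. Each bin's balanced contacts are likewise tied to a near constant sum. The ratio of balanced contact to the mean of the same library at the same map distance is called contact over expectation here, and 1 means average for the distance. Between Sox9 and the right edge it averaged 1.65 in BorKnockIn and 1.66 in InvC, 1.3 in InvIntra, 1.31 in InvC∆Bor, and 1.21, 1.23, 1.18 and 1.24 in the deletion libraries. Past the edge it was below 1 in all 8 libraries, with 0.659 in BorKnockIn and 0.609 in InvC the highest and 0.334 in ∆CTCF the lowest.

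**Figure D1:**
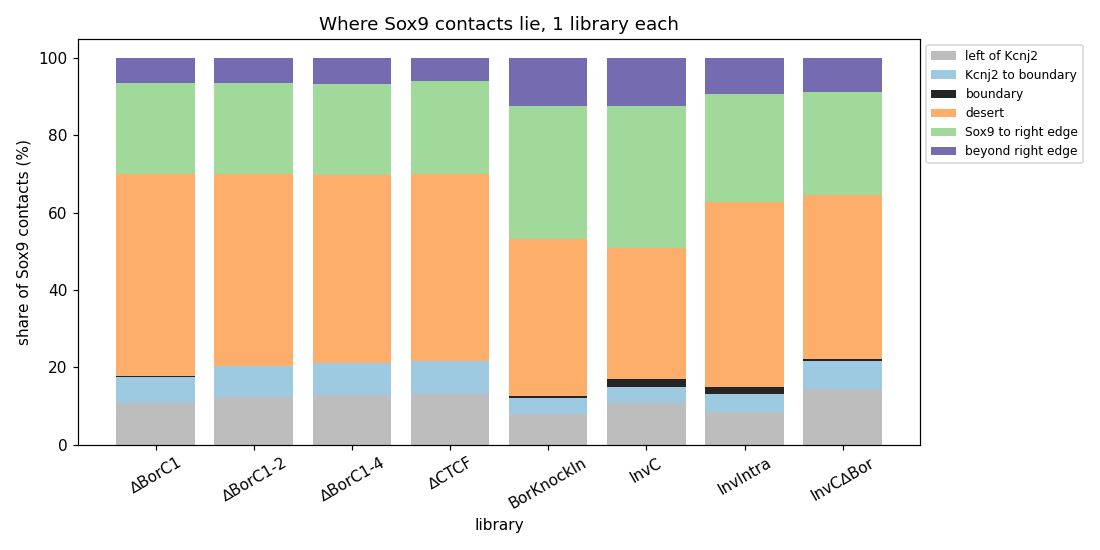
Share of Sox9 contacts at least 20 kb away (percent, stacked to 100) that fell in each region, 1 bar per library. The region named boundary is the boundary bin and its right neighbour, by sequence, and in BorKnockIn a bin with no matching sequence. The desert segment is shortest in InvC (34.0%) and BorKnockIn (40.8%), where the segments to the right of Sox9 are tallest.

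The desert share was larger for the left bin of the viewpoint than for the right bin. In ∆BorC1 the desert took 63.6% of the contacts of the left bin, 54.7% of those of the middle bin and 38.6% of those of the right bin. The same fall from left to right was seen in all 8 libraries, and in InvC, which had the lowest values, the 3 bins gave 42.9%, 35.3% and 24.7%. All 3 bins were read against the same partner bins.

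**Figure D2:**
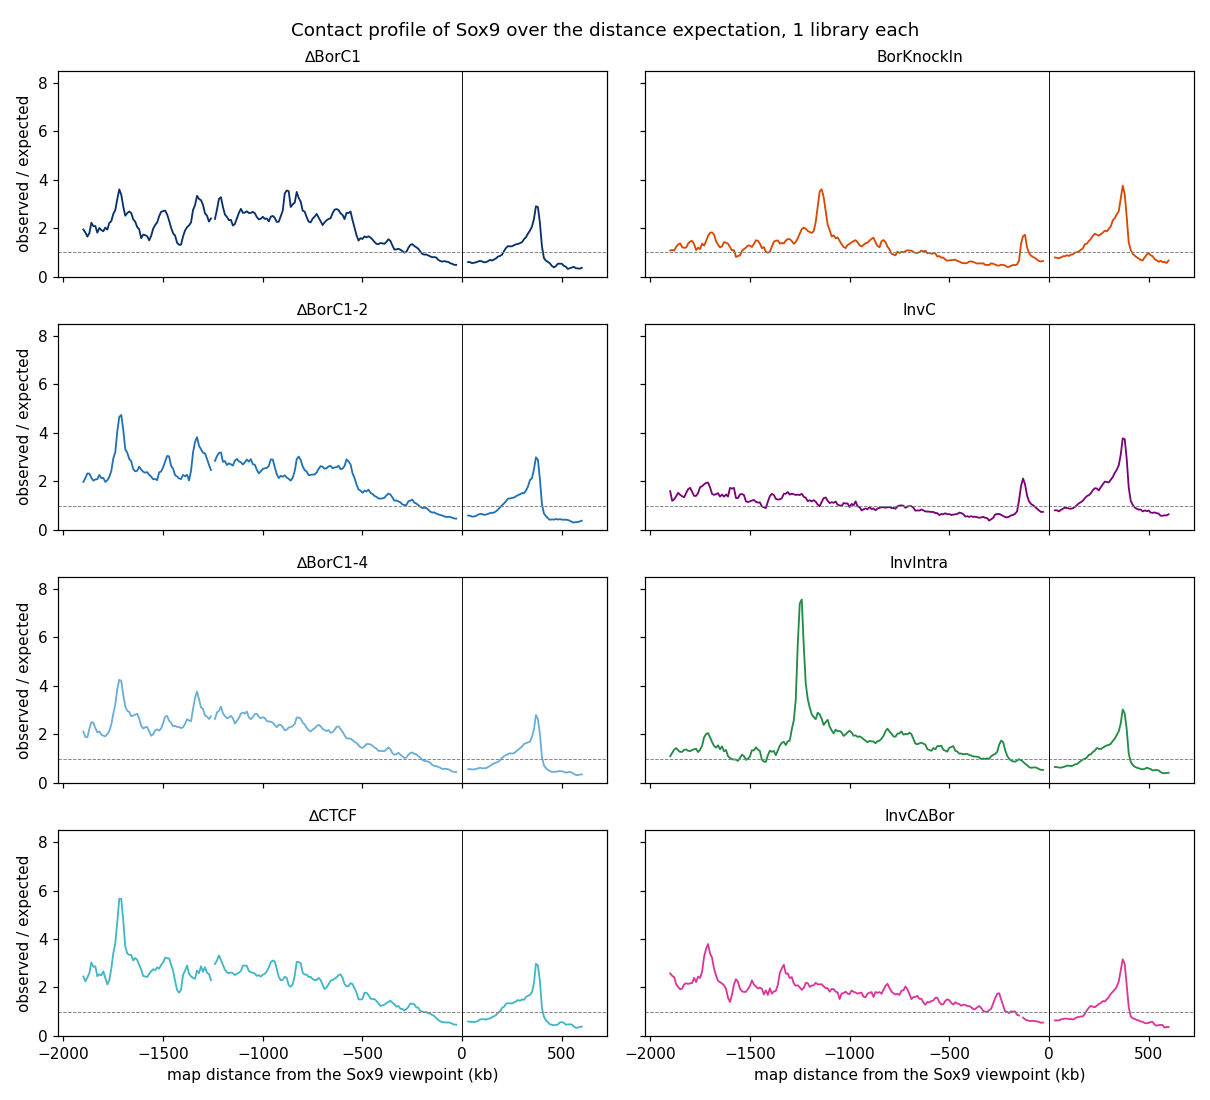
Balanced Sox9 contact over the distance expectation (ratio, smoothed over 3 bins) against map distance from the viewpoint in kb, 1 library per panel; the vertical line is Sox9 and the dashed line is a ratio of 1. The deletion libraries rise with distance into the desert, BorKnockIn and InvC have a peak within 150 kb on the left of Sox9, and InvIntra has its highest value, 7.57, at the boundary.

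Over the desert, the deletion libraries had a sloping profile, poorest next to Sox9. In the 100 kb next to Sox9 (112.51 to 112.61 Mb) contact over expectation was 0.62, 0.56, 0.57 and 0.57 in the deletion libraries. In the farthest 100 kb (111.41 to 111.51 Mb) it was 2.64, 2.89, 2.80 and 2.85. In raw shares those same end windows held 6.88%, 6.38%, 6.32% and 6.54% (near) and 2.40%, 2.53%, 2.56% and 2.54% (far), so that the far window, although low in contacts, was high for its distance. InvIntra and InvC∆Bor resembled the deletion libraries in the near window, with 0.66 and 0.63 over expectation and 7.43% and 7.02% of contacts.

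BorKnockIn and InvC were set apart in the near window. It held 13.4% of the Sox9 contacts in BorKnockIn (13.1 to 13.7) and 13.8% in InvC (13.5 to 14.1), and contact over expectation was 1.05 and 1.22. Over the other 11 windows InvC ran in raw share from 1.21% in the window at 112.21 Mb to 3.19% in the window at 111.41 Mb, read in sequence order. BorKnockIn ran from 1.67% at 111.61 Mb to 3.57% at 112.41 Mb. Over the 8 libraries, in sequence order, the highest share of a desert window was a median of 2.71 times the lowest, and at most 4.11 times. With the inverted libraries this sets unlike map distances side by side, which the flank windows do not. In the flank windows the median ratio was 1.17 and the highest 2.00. Among the 4 deletion libraries alone, the desert windows gave 1.08 and 1.43.

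**Figure D3:**
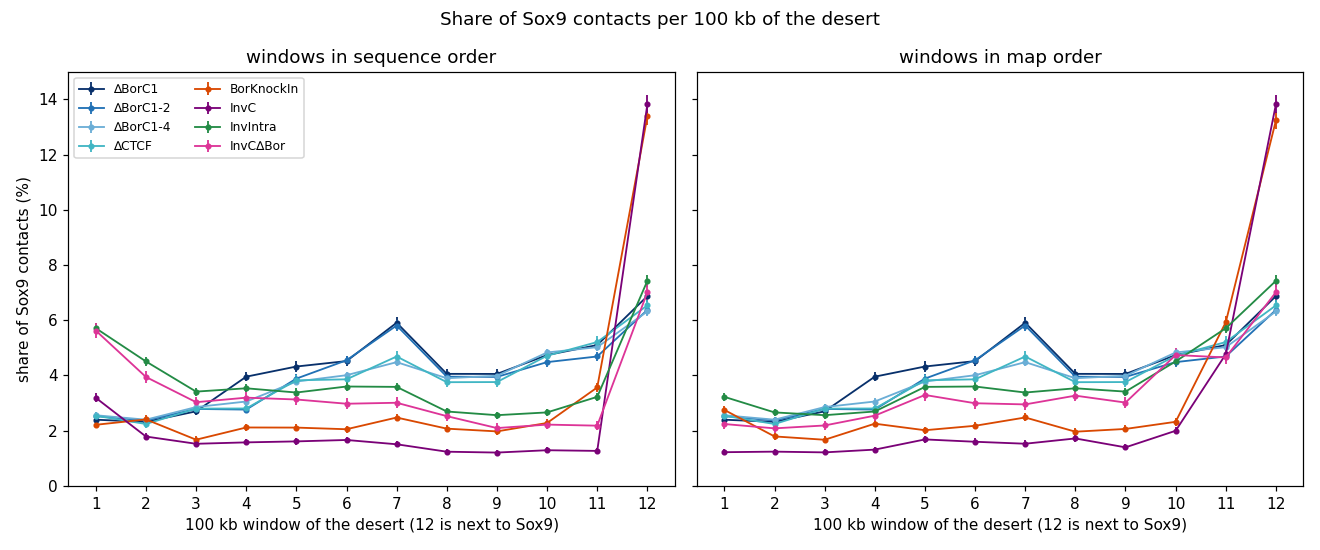
Share of Sox9 contacts (percent) in each of 12 windows of 100 kb of the desert, numbered from the left end, with 95% Clopper-Pearson intervals; windows follow the sequence on the left and the map position on the right. Window 12, next to Sox9, is at 13.4% in BorKnockIn and 13.8% in InvC and between 6.32% and 7.43% in the other 6 libraries.

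Between neighbouring deletion libraries, in label order, no desert window met the limit set for a change, and the lowest ratios lay at 2 places. A window was called where its share differed by more than 1.5-fold in either direction. For ∆BorC1-2 over ∆BorC1 none of the 12 windows was called, and 0% of the 1362 flank windows were. The lowest ratio was 0.699, in the window from 111.71 to 111.81 Mb, where the share was 3.96% in ∆BorC1 and 2.76% in ∆BorC1-2. The flank windows of this comparison ran from 0.763 to 1.28. For ∆BorC1-4 over ∆BorC1-2 again none was called (flank 0%). The lowest ratio was 0.772, in the window from 112.01 to 112.11 Mb, with 5.81% in ∆BorC1-2 and 4.48% in ∆BorC1-4, and the lowest flank ratio was 0.756. For ∆CTCF over ∆BorC1-4 none was called (flank 0%), and all 12 ratios lay between 0.917 and 1.05.

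Read in single bins, the first of these places was a peak. At 111.76 Mb, 880 kb from Sox9, the 3 bins around the peak held 728 contacts in ∆BorC1 and stood at 3.56 times the expectation (3.31 to 3.83), 1.43 times the median of the profile within 15 bins. In ∆BorC1-2 the site held 551 contacts and stood at 2.16, in ∆BorC1-4 873 contacts and 2.19, and in ∆CTCF 420 contacts and 2.39, each below its surroundings. The size of such values moved with the settings: in ∆BorC1 it was 4.73 from raw counts, 4.53 with the expectation from outside Kcnj2 to the right edge and 4.50 with a viewpoint of 1 bin, in each case above the other 3 deletion libraries (2.31 to 3.11). The share of Sox9 contacts at this site was 1.54% in ∆BorC1 and 0.895% in ∆BorC1-2, a ratio of 0.581 (0.521 to 0.649). Of the 90 flank sites at the same distance, the lowest ratio was 0.575 and the central 95% ran from 0.728 to 1.23.

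The second place, at 112.06 Mb and 580 kb from Sox9, was lower from ∆BorC1-4 on. Its share was 1.80%, 1.89%, 1.18% and 1.21% in the deletion libraries, and contact over expectation was 2.64, 2.91, 1.84 and 2.05. The ratio of ∆BorC1-4 to ∆BorC1-2 was 0.623 (0.574 to 0.677), below the lowest of 130 flank sites, 0.761. ∆CTCF over ∆BorC1-4 gave 1.03 (0.932 to 1.14), within the flank range. Both places had been named from earlier results of these maps as positions where insulation changed between the same libraries, so the Sox9 values are not independent of that choice.

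BorKnockIn, with added sequence near Sox9, had fewer contacts than ∆BorC1 in most of the desert and more beside the gene. Of the 12 windows, 9 were past 1.5-fold, with 8 lower and 1 higher in BorKnockIn, against 0% of flank windows. The lower windows ran without a gap from 111.61 to 112.41 Mb. The strongest was 112.01 to 112.11 Mb, with 2.48% in BorKnockIn and 5.91% in ∆BorC1, a ratio of 0.419 (0.392 to 0.448). The window next to Sox9 was the higher one, with a ratio of 1.95 (1.87 to 2.03). The 2 windows farthest from Sox9 kept ratios of 0.923 and 1.04, so the lower shares lay in the middle of the desert and not at its far end. BorKnockIn and ∆BorC1 differ by more than 1 named change, and the part of each was not tested.

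InvC∆Bor against InvC compared libraries of the same inverted order with and without the boundary next to Sox9. All 12 windows were past 1.5-fold (flank 0%), with 11 higher in InvC∆Bor and 1 lower. The lower one was the window next to Sox9, at 7.02% in InvC∆Bor and 13.8% in InvC, a ratio of 0.508 (0.484 to 0.532). This window includes the bin beside the boundary bin on the InvC map, and whether that bin holds boundary sequence was not tested. The 11 higher windows lay within a narrow band, from 1.72 at 112.31 Mb to 2.21 at 111.51 Mb. InvC∆Bor thus had a smaller share in the 100 kb beside the gene and larger shares, by a similar factor, in every other 100 kb of the desert. In map order 11 windows were called.

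InvIntra, in which the boundary stayed at the far end of the desert, stood nearer to InvC∆Bor than to InvC. None of the 12 windows was past 1.5-fold in InvIntra over InvC∆Bor, where 0.0734% of flank windows were. In sequence order all 12 ratios were nevertheless above 1, the lowest at 1.02, with a median of 1.13. The desert share was 1.12 times as large in InvIntra (1.11 to 1.14). The highest ratio, 1.48 (1.35 to 1.62), was that of the window from 112.41 to 112.51 Mb, which in InvIntra lies beside the boundary on the map. Against InvC all 12 windows were called (flank 0.294%), 11 higher in InvIntra and the window next to Sox9 lower, at a ratio of 0.537. BorKnockIn over InvC called 5 windows in sequence order, all higher (flank 0%), which were the windows from 112.01 to 112.51 Mb. These lie at unequal map distances from Sox9 in BorKnockIn and InvC, and flank windows at equal ones. In contact over expectation BorKnockIn stood below InvC in each but that at 112.01 Mb (0.964 and 0.915), with 0.523 and 1.26 at 112.41 Mb. In map order this comparison called 3, at 111.41 Mb (ratio 2.25), 111.71 Mb (1.71) and 112.01 Mb (1.62). The 4 map windows from 112.11 to 112.51 Mb had ratios between 1.14 and 1.48. The near windows of BorKnockIn and InvC had a ratio of 0.968 (0.937 to 1.00).

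In InvIntra and InvC∆Bor the slope over the desert was like that of the deletion libraries by map position and not by sequence. In sequence order the 6 left windows held 0.658, 0.645, 0.654 and 0.630 times the contacts of the 6 right ones in the deletion libraries, but 1.09 times in InvIntra and 1.15 times in InvC∆Bor. Read by map position, the values became 0.655 in InvIntra and 0.598 in InvC∆Bor, beside those of the deletion libraries. InvC had lower ratios, 0.558 by sequence and 0.328 by map. Its 6 right windows include the window next to Sox9, which is the same in both orders and held 13.8% in InvC. Inside the inversion, the InvC window at 111.41 Mb held 3.19% by sequence and 1.22% by map. That at 112.31 Mb held 1.29% by sequence and 2.00% by map, so these shares also turned with the reading order. InvC∆Bor over ∆BorC1 called 8 windows in sequence order (flank 0%), 2 higher and 6 lower, and 3 in map order. The median of the deletion libraries over InvIntra called 5 in sequence order (flank 0.147%), 3 higher and 2 lower, and 1 in map order. Flank windows are read at equal distances and the windows in sequence order are not, so the flank percentages are no matched background for them. At 111.41 Mb the share in InvC∆Bor was 2.35 times that in ∆BorC1, but contact over expectation was 1.15 against 2.64. At 112.41 Mb these were 0.428 times, and 2.08 against 0.956. The windows at 111.91 and 112.01 Mb were lower in InvC∆Bor by both measures.

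Across 107 bins of the inverted interval, log2 contact over expectation in InvIntra correlated with the deletion libraries at r from 0.741 to 0.846 by map and from -0.791 to -0.625 by sequence. In InvC∆Bor the values ran from 0.701 to 0.757 by map and from -0.668 to -0.509 by sequence. In InvC they ran from 0.695 to 0.799 and from -0.773 to -0.628. These describe bins that share a library and a trend with distance. With each profile divided by the median of its surroundings the median correlation with the deletion libraries lay between 0.0094 and 0.228 by map and between 0.059 and 0.166 by sequence in these 3 libraries. With raw counts the median by sequence moved to -0.028 in InvC, -0.104 in InvIntra and 0.075 in InvC∆Bor.

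Narrow peaks of Sox9 contact were few in the desert under the main settings. Over the 8 libraries 6 bins met the peak rule, the highest bin within 5 bins either side of the smoothed profile, at least 1.3 times the median within 15 bins and with at least 100 contacts. This was 0.620% of 968 desert bins, against 2.04% of bins read from the flank viewpoints. The number of desert peaks was 26 from raw counts, 20 with a viewpoint of 1 bin and 24 without smoothing. The flank percentage was read under the main settings alone, so these numbers have no matched background. ∆BorC1 had the peak at 111.76 Mb. BorKnockIn had one at 112.52 Mb by sequence, 120 kb from Sox9, with 2197 contacts, at 1.73 times the expectation (1.66 to 1.80) and 2.71 times its surroundings. InvC had its peak at 112.51 Mb, 130 kb from Sox9, with 2022 contacts, at 2.12 (2.03 to 2.21) and 2.87 times its surroundings. The peak bin of InvC lies beside the boundary bin on its map, and whether it holds boundary sequence was not tested. No peak met the rule in the desert of ∆BorC1-2, ∆BorC1-4 or ∆CTCF.

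The other 3 desert peaks shared a sequence, at 111.50 to 111.51 Mb. This sequence lay at very different map distances from Sox9: 1140 kb in BorKnockIn, 240 kb in InvIntra and 250 kb in InvC∆Bor. Contact over expectation at the peak bin was 3.61 in BorKnockIn with 669 contacts, 1.74 in InvIntra with 1570 contacts and 1.76 in InvC∆Bor with 631 contacts. Read at the bin of 111.50 Mb in every library, contact over the surroundings was 1.99 in BorKnockIn, 1.69 in InvIntra, 1.68 in InvC∆Bor and 1.17 in InvC, and 0.856, 1.02, 0.897 and 0.960 in the deletion libraries. Contact over expectation in that bin was 2.18, 2.85, 2.45 and 2.51 in the deletion libraries. That was above InvIntra (1.68), InvC∆Bor (1.76) and InvC (0.653), and below BorKnockIn (3.52). The deletion libraries carry C1 or CTCF in their names, while the 3 with a peak, and InvC without one, carry neither. The labels do not say what C1 stands for, and the part of these edits in the peak was not tested. This site was chosen after its values were seen.

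The share of Sox9 contacts at 111.50 Mb was 1.22% in BorKnockIn and 0.571% in ∆BorC1, a ratio of 2.14 (1.85 to 2.47), above the highest of 54 flank sites, 1.54. The deletion libraries also differed there, with 0.745% in ∆BorC1-2, 1.31 times ∆BorC1 (1.12 to 1.52), where the flank sites reached 1.13. InvC has the same map distance there as InvC∆Bor, and had 0.796% against 2.2%. The ratio of InvC∆Bor to InvC, 2.76 (2.43 to 3.14), was above the highest of 174 flank sites, 1.44. The site was chosen for its peaks in BorKnockIn, InvIntra and InvC∆Bor, and the flank sites were not chosen by their values. Its rank among them is therefore no test of the difference. The summed raw contacts of the site's bins with the whole map also differed: they were 1.36, 1.28 and 1.29 times those of the median bin in BorKnockIn, InvIntra and InvC∆Bor, and between 1.15 and 1.19 times in the other 5 libraries. The part of this coverage in the peaks was not tested.

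**Figure D4:**
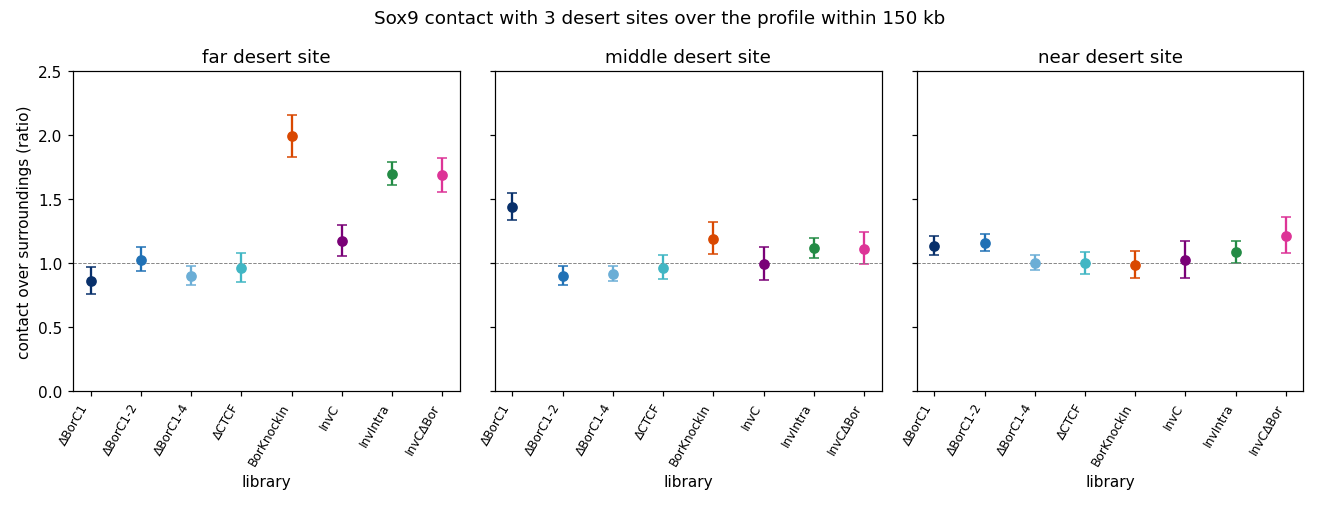
Balanced Sox9 contact at the desert sites 1140 kb (far), 880 kb (middle) and 580 kb (near) from Sox9 in the deletion libraries, divided by the median of the profile within 150 kb (ratio), 1 point per library with a 95% Poisson interval of the contacts. At the far site BorKnockIn, InvIntra and InvC∆Bor are at 1.99, 1.69 and 1.68, and at the middle site ∆BorC1 is at 1.43.

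In InvIntra and InvC, which kept the boundary, Sox9 contact with its bin stood above the expectation. In InvIntra the boundary bin, 1250 kb from Sox9, stood at 9.75 times the expectation (8.97 to 10.6), and its right neighbour held 493 contacts at 8.02. Smoothed over 3 bins, the profile peaked at 111.40 Mb with 1395 contacts and 7.57 times the expectation (7.18 to 7.98), the highest value of its profile. In InvC the boundary bin lay 140 kb from Sox9 and its 641 contacts stood at 2.03 times the expectation (1.88 to 2.2). The next bin towards Sox9, at 112.51 Mb, was counted in the window next to the gene and not in the boundary region. It held 1038 contacts at 2.45 (2.31 to 2.61), while the bin on the other side held 293 at 0.937. In ∆BorC1 the bin just left of the emptied boundary bin held 20 contacts, and the bin left of that one held 90. Whether the lost sequence reaches past the boundary bin, and so into the 112.51 Mb bin of InvC, was not tested. That bin is part of the near window and of the desert peak of InvC. In InvC∆Bor the bins on either side of the empty one held 94 and 121 contacts, at 0.738 and 0.702. In the deletion libraries the bins beside the emptied boundary stood at 0.828 to 1.01 times their surroundings. The boundary of BorKnockIn has no settled bin and was not read.

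Left of the boundary site, Sox9 contacts peaked at 3 places in several libraries. A peak at 110.35 to 110.36 Mb, about 2.3 Mb from Sox9, was present in 8 of 8 libraries. Contact over expectation there was 5.95, 7.58, 6.82 and 7.42 in the deletion libraries, 3.61 in BorKnockIn, 4.04 in InvC, 4.76 in InvIntra and 6.27 in InvC∆Bor. The deletion libraries and InvC∆Bor held the 5 highest values, and BorKnockIn, which also lacked sequence at the original boundary site, held the lowest. The peak at Kcnj2 (110.92 to 110.94 Mb) met the rule in 7 of 8 libraries, all but InvC. The difference of InvC lies at the limit of the rule: at 110.92 Mb it stood at 1.28 times its surroundings and 1.93 times the expectation, and BorKnockIn, which met the rule at 110.94 Mb, at 1.27 and 1.69. InvIntra had 1.48 and 2.01 there, InvC∆Bor 1.65 and 3.59, and the deletion libraries 1.72 to 1.97 and 3.61 to 5.66.

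A smaller peak at 111.31 Mb was found in ∆BorC1, ∆BorC1-2, ∆BorC1-4 and InvC∆Bor. Contact over expectation there was 3.34, 3.82, 3.77 and 2.94 in these libraries, on 168 to 617 contacts. ∆CTCF, which lacks the boundary too, had 2.70 (2.32 to 3.12) on 184 contacts and stood at 1.01 times its surroundings, where those 4 libraries had 1.36 to 1.42. InvC, InvIntra and BorKnockIn had 1.48, 1.69 and 1.5.

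To the right, the Sox9 profile kept 2 peaks in 8 of 8 libraries. The peak at 113.01 Mb, 370 kb from Sox9 at the right domain edge, held 1100, 1497, 2065 and 1028 contacts in the deletion libraries, 1575 in BorKnockIn, 1516 in InvC, 1681 in InvIntra and 738 in InvC∆Bor. Its contact over expectation was 2.80 to 2.99 in the deletion libraries, 3.03 in InvIntra, 3.16 in InvC∆Bor, 3.76 in BorKnockIn and 3.78 in InvC. Over its surroundings it ran only from 2.17 to 2.54, so the peak rose with the whole right side of the gene. Its share was 1.43 times as large in BorKnockIn as in ∆BorC1 (1.33 to 1.55), beside 1.43 for the highest of 158 flank sites. In InvC∆Bor over InvC it was 0.763 (0.700 to 0.832), and the lowest flank ratio was 0.746. In InvIntra over InvC it was 0.822 (0.768 to 0.880), below the lowest flank ratio, 0.855. A weaker peak past the edge, at 113.47 to 113.50 Mb, stood at 0.738 to 1.46 times the expectation.

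The viewpoint whose desert profile was most like that of Sox9 lay at this same edge in most libraries. Among 144 to 146 viewpoints of 3 bins outside the desert and at least 200 kb from Sox9, the one at 113.00 to 113.03 Mb correlated best in ∆BorC1 (r = 0.931), ∆BorC1-2 (0.935), ∆CTCF (0.925), InvIntra (0.926) and InvC∆Bor (0.730), over 119 to 120 bins. It came next to the best in ∆BorC1-4 (0.936, after 0.947 for 112.85 to 112.88 Mb). In BorKnockIn, whose map is shifted left by 1 bin there, the best was at 113.02 to 113.05 Mb (0.889), which starts at 113.03 Mb by sequence. In InvC the best was at 112.88 to 112.91 Mb with r = 0.691, the lowest of the 8. Viewpoints of 1 library share its distance trend and its depth.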

How the data were processed

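Maps of 8 capture Hi-C libraries were used. The authors deposited 2 maps of each: read-pair counts between 10 kb bins, not normalised, and a balanced signal (Knight-Ruiz, KR), which the authors derived from the counts. Bowtie2 2.2.6, Juicer and the build mm9 are named per the submitters' processing notes; how reads were filtered was not given in those sources.

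Shares used counts. The expectation was the mean KR value of the library at each distance, with bins under 0.05 of the median coverage left out. Inverted libraries were mirrored about 223.899 Mb (InvC, InvC∆Bor) or 223.9175 Mb (InvIntra); BorKnockIn was moved by 2 bins in the desert and by 1 bin to its right. Flank windows needed 100 contacts in every library, flank sites 20. The members, sites and rules were chosen with earlier results of these data known. Named places are peaks, called windows and places earlier results named. Sox9 and Kcnj2 were placed from general knowledge of mm9. On 5 simulated maps 4 of 4 planted sites were found, with folds within 0.0794. Scripts ran in Python 3.11.15 with scipy 1.17.1, matplotlib 3.10.9, pandas 2.3.3 and numpy 2.4.6.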

Additional observations from a re-analysis of the deposited data

How the results depend on the processing

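Of 296 values under alternatives, 182 stayed within their counting error, for counts of windows or peaks within 1.5 times, or for correlations within 0.1; the cause of the others was not tested. Contact over expectation at single sites depended on the settings: 43 of 54 values moved beyond the counting interval, 41 up and 2 down, by 0.917 to 1.54 times. BorKnockIn at 111.50 Mb, 3.52, became 4.65 with raw counts and 4.95 with the expectation from outside Kcnj2 to the right edge, which took ∆CTCF there from 2.51 to 3.86. The InvIntra boundary, 7.40, became 9.38 and 10.4, and 9.95 with a viewpoint of 1 bin. That of InvC, 1.81 over its 3 bins, became 2.58, 1.66 and 2.33. No paired analysis was possible because each genotype has 1 library. The desert share of BorKnockIn over ∆BorC1, 0.778, became 0.724 with KR values, 0.635 with a viewpoint of 1 bin, 0.758 with 5 bins, 0.742 beyond 50 kb and 0.731 with low bins left out. That of InvC∆Bor over InvC, 1.25, became 1.28 (1 bin), 1.32 (50 kb) and 1.29 (low bins). That of InvIntra over InvC, 1.41, became 1.44 (KR), 1.47 (1 bin), 1.5 (50 kb) and 1.45 (low bins). That of InvC∆Bor over ∆BorC1, 0.812, became 0.796 (50 kb).

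For InvIntra over InvC∆Bor, 1 window was called in place of 0 in sequence order with KR values, a viewpoint of 1 bin, low bins left out or contacts split by overlap, and 1 in map order with KR values or 1 bin. For the deletion median over InvIntra the 1 window called in map order became 0 with KR values or 1 bin. The 6 desert peaks became 26 with raw counts, 20 with a viewpoint of 1 bin and 24 without smoothing, so the number of peaks depends on these settings.

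The median correlation with the deletion libraries changed most. With raw counts it was 0.479 for BorKnockIn by map, and by sequence and by map -0.028 and 0.443 for InvC, -0.104 and 0.554 for InvIntra, and 0.075 and 0.444 for InvC∆Bor. With the expectation from outside Kcnj2 to the right edge it was -0.847 and 0.879, -0.843 and 0.899, and -0.809 and 0.876 for the same 3 libraries. Smoothing gave -0.682 and 0.848 for InvC∆Bor. Over the surroundings, an alternative chosen after seeing the data, it was 0.10 and -0.071 for BorKnockIn, 0.059 and 0.0094 for InvC, 0.166 and 0.228 for InvIntra, and 0.072 and 0.125 for InvC∆Bor.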
